A study of Mus musculus with 24 samples.

Results

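The genes described here encode the nuclear subunits of the mitochondrial respiratory chain and of ATP synthase, in sorted mouse thymocytes and B cells. They were taken by name from the array's own annotation: names beginning with Ndufa, Ndufb, Ndufc, Ndufs, Ndufv, Uqcr, Cox4 to Cox8 followed by a, b or c, or Atp5, and the names Sdha to Sdhd. This gave 87 of 34844 gene names, on 131 of 55681 probes, and each gene was represented by its probe with the highest mean over the 24 arrays. By complex, 42 belonged to complex I, 4 to complex II, 8 to complex III, 16 to complex IV and 17 to complex V. The names take in genes that are no subunits: 4 assembly factors of complex I (Ndufaf1 to Ndufaf4), the paralogue Ndufa4l2, and Atp5s and Atp5sl, which were once named for ATP synthase. No measured value entered the choice.

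Oxidative phosphorylation makes most of the ATP of a resting cell. Complexes I and II pass electrons from NADH and succinate to ubiquinone, complex III passes them on to cytochrome c, complex IV reduces oxygen, and complex V uses the resulting proton gradient to make ATP. All subunits of complex II and most of the others are encoded in the nucleus, while a small set of hydrophobic core subunits is encoded in the mitochondrial genome. In the thymus, cells pass from glycolytic, proliferating double-negative stages to resting double-positive cells, and mature single-positive cells follow.

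Nuclear respiratory factor 1 (NRF1), the ETS factor GABP and YY1 are known to bind promoters of many of these genes, so promoter sequence is shown for members that recur below. RefSeq windows of 300 bases (250 before to 50 after the annotated start, build GRCm38.p6) matched 74 of the 87 members, in 80 windows. They were searched on both strands for the NRF1 consensus, CCGGAAG (the ETS core read by GABP) and AANATGGC (YY1), whose matches overlapped each other in 0 of the 80 windows. The NRF1 consensus stood in 19 windows (23.8%, against 4.60% of all 32851 windows), the ETS letters in 17 (21.2%, against 8.86%) and the YY1 letters in 20 (25%, against 6.05%). At least 1 of the 3 stood in 49 windows (61.2%, against 17.4%). The 4 windows of tissue isoforms of complex IV held 0 matches. Member windows had a median GC content of 58.0% and 19.5 CpG dinucleotides, against 52.7% and 7.0 for all windows. The 250 bases before the start are given below, 5′ to 3′ on the gene's strand, with matches in capitals. Ndufb5 (chr3:32736813-32737062, plus strand) holds 2 YY1 matches and is the member nearest to the threshold of the tests. Sdha (chr13:74350241-74350490, minus strand) holds 3 NRF1 matches and is among the members that varied most between arrays. Cox7a1 (chr7:30183921-30184170, plus strand), a heart and skeletal muscle isoform, holds none of the 3. A match describes the letters only, and the windows say nothing on which factors were bound in these cells.
Ndufb5: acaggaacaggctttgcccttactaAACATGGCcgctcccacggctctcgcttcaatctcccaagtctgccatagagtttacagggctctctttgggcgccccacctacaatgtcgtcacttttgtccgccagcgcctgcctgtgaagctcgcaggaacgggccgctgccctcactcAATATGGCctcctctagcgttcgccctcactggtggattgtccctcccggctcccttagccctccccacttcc
Sdha: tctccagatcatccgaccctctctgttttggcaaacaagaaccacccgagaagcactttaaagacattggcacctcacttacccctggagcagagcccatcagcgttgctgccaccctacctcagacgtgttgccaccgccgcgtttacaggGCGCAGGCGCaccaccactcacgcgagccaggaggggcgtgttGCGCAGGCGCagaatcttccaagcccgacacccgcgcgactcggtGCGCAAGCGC
Cox7a1: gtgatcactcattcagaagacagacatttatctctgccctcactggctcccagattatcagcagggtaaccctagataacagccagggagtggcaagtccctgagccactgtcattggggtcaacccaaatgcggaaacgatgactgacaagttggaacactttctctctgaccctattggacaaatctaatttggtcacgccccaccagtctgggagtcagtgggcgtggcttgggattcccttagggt

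The series holds 24 single-colour arrays of amplified polyadenylated RNA from cells sorted by flow cytometry, in 8 groups. The groups called wt, as in the titles, are thymocytes of mice with 1 functional copy of Foxn1 (+/-), a transcription factor of thymic epithelium. They are DN3 (a stage negative for CD4 and CD8), DP (positive for both), SP4 (CD4 only) and SP8 (CD8 only), with 3 arrays each. The groups called tg came from a transgenic thymus on a Foxn1-deficient (-/-) background: 4 arrays of DP thymocytes and 2 of B cells without surface IgM. Fetal liver of wild-type mice gave 3 arrays of B cells without and 3 with surface IgM, called IgM-negative and IgM-positive liver B. The labels used here name neither the transgenes nor ages, and do not say whether the arrays of a group are different animals, so each p reflects the variation among these arrays, part of which may be technical. The SP4 group was taken from the titles, since 1 of its labels names both single-positive types. Array numbers are those of the titles. Wt DP arrays 3 and 3A, and tg DP arrays 6, 6A and 6B, carry a common title number and may come from 1 animal. The groups lay unevenly on 4 slides: all wt DP arrays on slide 2, all SP8 on slide 3, all IgM-negative liver B and tg B arrays on slide 4.

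Between 80.5% and 96.6% of probes per array were well above background, with tg B 23 lowest (median processed signal 125, against 208 to 314 on the others). The tg B arrays also differed most from each other (SD of gene differences 1.64, against 0.661 to 1.47 for pairs within other groups). The 11 T lineage markers summed to log2 values between 4.21 and 4.72 in thymocyte groups and between 4.21 and 4.76 in B cell groups, ranges that overlap. The 9 measured B lineage markers gave 2.21 to 2.93 in thymocytes and 2.44 to 3.57 in B cells. The tg B arrays, at 2.72 and 2.74, lay within the thymocyte range. Against IgM-negative liver B, 6 of the 9 B markers were lower in tg B and 3 higher (median -0.75). Cd79a, a chain of the B cell receptor, had the smallest p of them there (-3.63 ± 0.84, limma adjusted p = 0.0935). Gene by gene, 8 of 11 T markers were higher in wt thymocytes than in liver B and Tcf7, a T lineage transcription factor, passed (4.29 ± 0.64, limma adjusted p = 0.0187), while 8 of 9 B markers were lower and 0 passed. Of the 11 T markers, 8 were higher in SP4 than in SP8 and 3 lower (53.9% of all genes were lower), and 0 passed. Cd4 and Cd8a, also on this list, had larger p there than Cd8b1. Cd8b1, a CD8 chain, had the smallest p of the list. It was higher in SP4 than in SP8 (1.43 ± 0.47, limma adjusted p = 0.784) and than in DP (1.45 ± 0.47, adjusted p = 0.558). That direction is opposite to the name SP4, CD4 only, and its cause was not tested. Erythroid (5 genes, 1.29 to 2.44), hepatocyte (4 genes, -1.20 to 1.37), myeloid (6 genes, 7.38 to 8.23) and thymic epithelial markers (6 genes, 4.13 to 4.61) were all measured in every group, and 3 or more genes of each list were well above background on every array of each group. The part of such signal in the values below was not tested. In bulk samples, fewer cells of a type and less RNA per cell cannot be told apart.

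Values below are log2 processed signals minus the array's 75th percentile, so a value of 0 lies at that percentile, and differences are on the same log2 scale with the SE of the limma fit. A probe's level depends on its sequence, so bright and dim refer below to the signal of a probe and not to the amount of its transcript. Of the 87 members, 86 entered the tests. Ndufa8, a complex I subunit, did not, because its probe was well above background on 11 arrays and never on a whole group. Its group means ran from -6.17 in tg B to -4.78 in SP8. Probes of 66 of the 86 tested members were well above background on all 24 arrays (76.7%, against 81.0% of all 33597 genes tested). The remaining members included catalytic subunits: Sdha on 19 arrays, Atp5a1 on 16, Atp5b on 22 and Uqcrfs1 on 10. The GC content of the probes moved with the signal. Over the 87 member probes its Pearson correlation with the mean level was 0.56 (0.51 over all 55681 probes), and its median was 45% for members well above background on 24 arrays and 35% for the rest. This is a description across probes, which are not replicates.

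No member differed between any groups past the threshold, a Benjamini-Hochberg adjusted p under 0.05 over all genes in limma. This held for all 8 comparisons and for the F-test over the 8 groups. It was also the state of most genes on these arrays: the same rule called 0.0% of genes in tg against wt DP, IgM-positive against IgM-negative liver B, DP against DN3, SP4 against DP, SP8 against DP and SP4 against SP8. It called 0.143% of genes in tg against liver IgM-negative B, 0.244% in wt thymocytes against liver B and 0.211% by the F-test, and 0 of 86 members in each. At an unadjusted p under 0.05, 3 members (3.49%, against 3.32% of all genes) stood out in tg against wt DP and 13 (15.1%, against 17.1%) in tg against liver IgM-negative B. There were 8 (9.30%, against 7.1%) in IgM-positive against IgM-negative liver B, 4 (4.65%, against 6.51%) in SP4 against DP and 5 (5.81%, against 5.13%) in SP4 against SP8. DP against DN3 and SP8 against DP had 0 such members, where 2.09% and 2.17% of all genes passed. Wt thymocytes against liver B had 9 (10.5%, against 13.3%), and the F-test had 7 (8.14%, against 13.7%). Most of these shares lay close to those of all genes, and that of the F-test lay below.

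**Figure D1:**
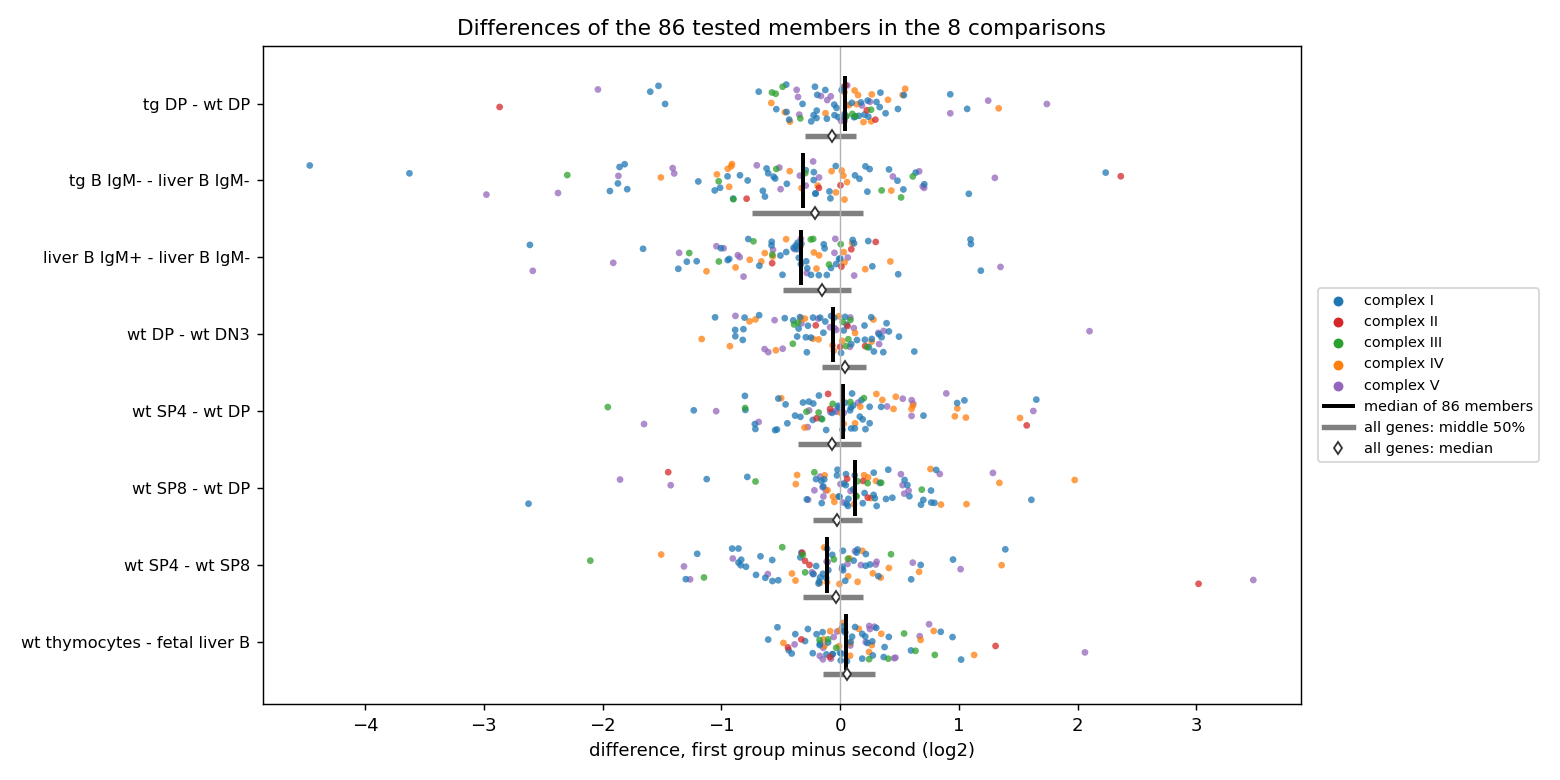
Differences (log2, horizontal axis) of the 86 tested members in the 8 comparisons, coloured by complex, with the members' median as a black line and the median and middle 50% of all genes below it. The members' medians lie between -0.33 and 0.13, and single members spread from -4.47 to 3.48.

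The median over the members moved little. Per array, each gene was centred on its mean over the 24 arrays and the median over the members was taken. This median lay between -0.39 (tg B 23) and 0.30 (SP8 13), with a pooled SD within groups of 0.114. Group means of it were highest in SP8 (0.12 ± 0.17, SD, n = 3), IgM-negative liver B (0.10 ± 0.025, n = 3) and DN3 (0.08 ± 0.065, n = 3). They were lowest in tg B (-0.24 ± 0.20, n = 2) and IgM-positive liver B (-0.15 ± 0.098, n = 3). Wt DP (0.01 ± 0.022, n = 3), tg DP (0.00 ± 0.12, n = 4) and SP4 (-0.01 ± 0.14, n = 3) lay between. The same median over all genes ran in the same groups from -0.17 in tg B and -0.12 in IgM-positive liver B to 0.06 in wt DP.

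The median member difference had the sign of that of all genes in 4 of the 8 comparisons. It was -0.31 in tg against liver IgM-negative B (all genes -0.21), with 59 of 86 members lower (68.6%, against 63.4% of all genes). With arrays scaled to their median, the count was 43 lower and 43 higher. In IgM-positive against IgM-negative liver B it was -0.33 (all genes -0.15), with 65 members lower (75.6%, against 66.4%), or 56 with median scaling. On slide 4 alone, which holds 2 IgM-positive and 3 IgM-negative arrays, the latter median was -0.33, with 61 members lower. In SP8 against DP 56 members were higher (65.1%, against 46.0% of all genes), with a median of 0.13 against -0.03, and these groups share no slide. Tg against wt DP had 49 members higher (40.4% of all genes) and a median of 0.04 against -0.07, or of -0.0066 on slide 2 alone. DP against DN3 had 49 lower (42.9% of all genes), with -0.06 against 0.04. SP4 against DP had 45 higher (41.9% of all genes), with 0.03 against -0.07, or 53 higher with normexp background correction. SP4 and wt DP also share no slide. SP4 against SP8 had 50 lower (53.9% of all genes), with -0.11 against -0.03. Wt thymocytes against liver B had 50 higher (57.5% of all genes), with 0.05 against 0.06, which became 40 higher and -0.04 with median scaling. Single values depended on the setting more than these medians: of 40 differences of members named below, 15 were smaller by over 1.5 times with normexp and 12 with slide as a block.

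Groups that did not overlap were also counted. In tg against wt DP this was so for 1 member above and 5 below (2.54% and 4.38% of all genes), and in tg against liver IgM-negative B for 4 above and 21 below (9.05% and 24.0%). IgM-positive liver B lay above IgM-negative for 1 member and below for 12 (2.03% and 11.5%). DP lay above DN3 for 1 and below for 6 (6.83% and 5.25%), SP4 above DP for 3 and below for 2 (5.5% and 10.1%), and SP4 above SP8 for 3 and below for 5 (4.02% and 6.67%). SP8 lay above DP for 9 members and below for 1 (4.78% and 6.05% of all genes). For wt thymocytes against liver B it was 0 in both directions (0.14% and 0.301%), with 12 arrays against 6. Comparisons that share a group, such as the 3 with wt DP on the same side, are not independent of each other.

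**Figure D2:**
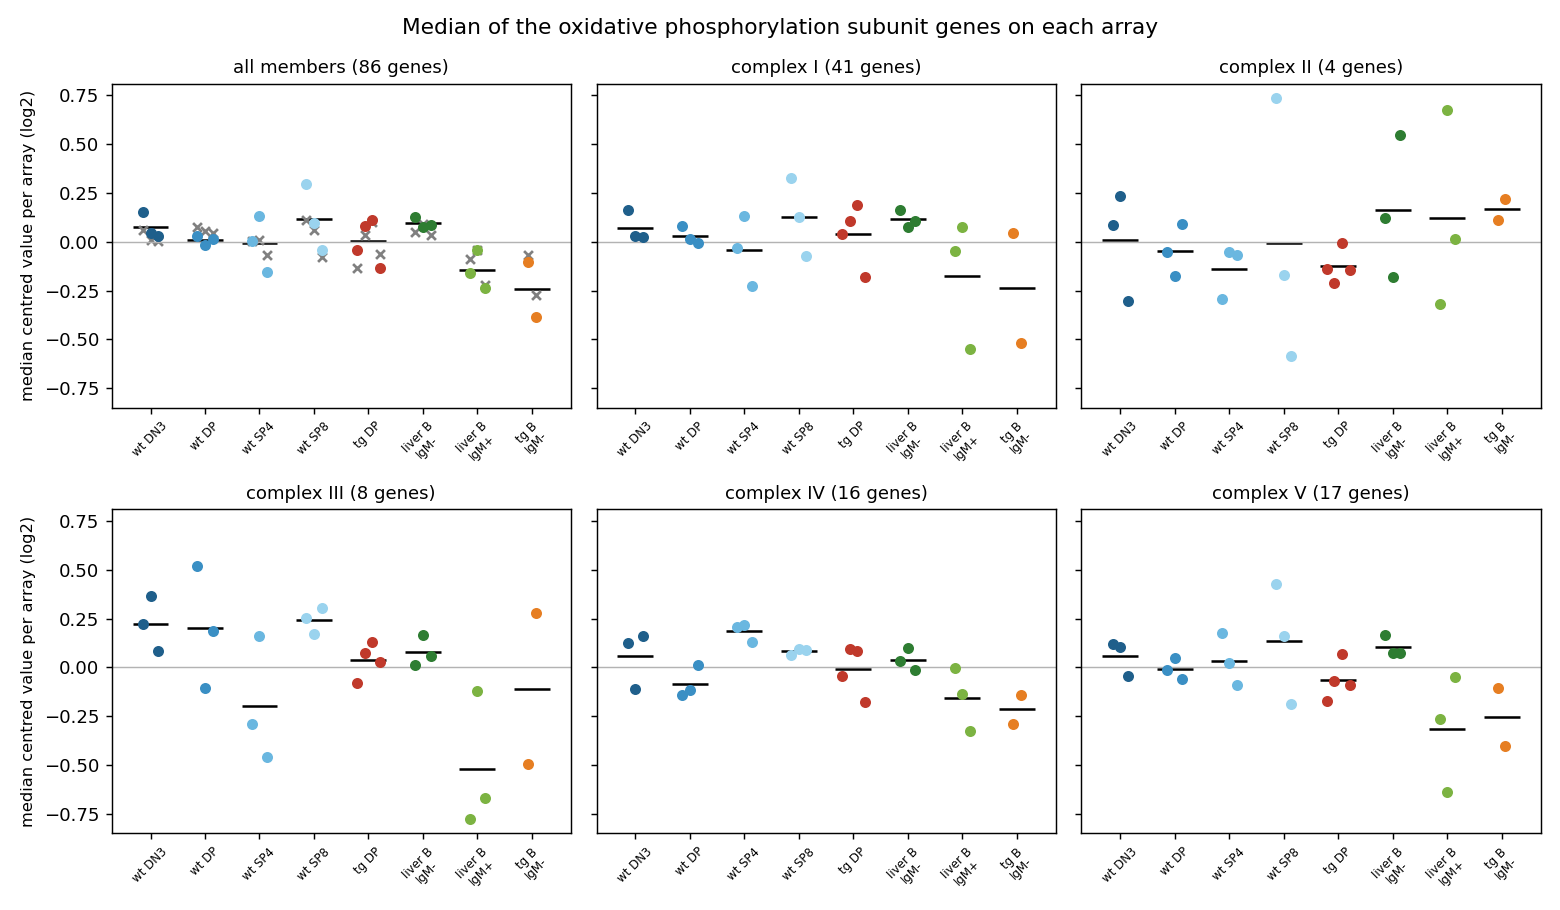
Median centred value (log2) of the members on each array, for all members and per complex; points are arrays, lines are group means, and grey crosses in the first panel are the medians of all genes tested. The per-array medians of all members stay between -0.39 and 0.30, and those of complexes II and III, with 4 and 8 genes, spread most.

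Complex I, the NADH dehydrogenase, had 41 tested members and per-array medians from -0.55 (IgM-positive 21) to 0.33 (SP8 13). Among its core subunits, Ndufs1, an iron-sulphur subunit of the NADH-oxidising arm, was at -1.93, -1.42 and -1.47 in IgM-negative liver B and at -3.48 and -3.45 in tg B. The groups did not overlap, as for 24.0% of all genes in this direction, and the difference was -1.86 ± 0.61 (limma, adjusted p = 0.166). In IgM-positive liver B, Ndufs1 was at -1.58, -4.08 and -3.25, and only the first of these arrays lay within the IgM-negative range. Ndufv1, which binds flavin and oxidises NADH, was at -2.76, -2.97 and -2.64 in IgM-negative and at -3.92, -3.05 and -5.03 in IgM-positive liver B, a difference of -1.21 ± 0.49 (adjusted p = 0.639). Groups stood apart in this direction for 12 members, and for 11.5% of all genes. Ndufv2, a further iron-sulphur subunit, ran from -2.54 ± 0.62 (IgM-positive) to -1.53 ± 0.59 (IgM-negative).

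Ndufa4 was first purified with complex I and was later assigned to complex IV. Its probe gave -3.28, -2.91 and -3.08 in IgM-negative liver B, and -7.70 and -7.41 in tg B, where it was not well above background on either array. Measured against the lowest signals well above background, tg B was at least 5.25-fold lower on the processed signal. With normexp background correction, which adds an offset, the difference was -1.01 ± 0.41, smaller than that bound. The fitted difference of -4.47 ± 1.21 had an adjusted p of 0.123 in limma, the smallest of any member in this comparison. The probe also fell to the background on single arrays of other groups: -7.32 on wt DP 3 against -3.12 and -3.50 on wt DP 3A and 2, and -7.62 on tg DP 6B against -3.42 to -2.75 on the other tg DP arrays. Ndufa4 has 1 probe on the array. Its paralogue Ndufa4l2, a target of the hypoxia response, kept group means between -1.31 (SP8) and -0.68 (tg B).

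Among accessory subunits of complex I, Ndufb5, of the membrane arm, separated the lineages most evenly. It was at 2.53 to 3.05 (median 2.70) on the 12 wt thymocyte arrays and at 3.01 to 3.39 (median 3.15) on the 6 liver B arrays. Only SP4 11 among the thymocyte arrays reached the liver B range. The tg arrays, which did not enter this comparison, were at 2.86, 2.72, 2.78 and 2.97 in DP and at 3.33 and 3.70 in B cells. The difference between wt thymocytes and liver B was -0.43 ± 0.095, with an adjusted p of 0.0624 in limma. It also did not pass with, among others, slide as a block, median scaling, array weights, the mean of a gene's probes or shared title numbers averaged. It passed the threshold under 6 other settings, with limma adjusted p between 0.0315 and 0.0459. Among these were the authors' series matrix values and the fits without SP4 11 or without IgM-positive 19. Those 2 arrays lie on slide 1, the 1 slide with both wt thymocytes and liver B. The other wt thymocyte arrays lie on slides 2 and 3, and the other liver B arrays on slide 4. Slide and lineage cannot be told apart on those slides. The representative probe lies at chr3:32647763-32647822 (mm9). The 3 other Ndufb5 probes, all well above background on 24 arrays, gave differences of -0.31, 0.12 and 0.26, so the probes of this gene disagreed in sign. Ndufb5 was also higher in tg than in liver IgM-negative B (0.41 ± 0.17, adjusted p = 0.244), where the mean of its probes gave -0.20.

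Ndufb6, a membrane arm subunit, was at -3.50, -2.95 and -2.70 in IgM-negative and at -4.01, -6.30 and -6.68 in IgM-positive liver B (difference -2.61 ± 0.74, adjusted p = 0.462). Its second probe, well above background on 8 arrays, gave 2.29 for the same comparison. Ndufa6, a matrix arm subunit, had the largest range of group means in complex I, from -5.50 in tg B to -0.76 in SP8. It was at -5.02 and -5.99 on the tg B arrays, at -2.49 to -1.53 in IgM-negative liver B, and at -7.09 on IgM-positive 21 against -1.35 and -1.07 on the other arrays of that group. Wt DP arrays spread as far, at -2.80, -4.67 and 0.35. Ndufa9, near the quinone site, was at 0.80, 0.30 and -0.13 in IgM-negative liver B and at -0.40 and -2.70 in tg B (-1.87 ± 0.70, adjusted p = 0.204). Ndufs4, a subunit whose loss causes Leigh syndrome, went the other way, from -4.02, -3.71 and -4.17 to -3.00 and -0.45 (2.24 ± 0.98, adjusted p = 0.257).

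Further complex I members met the naming rule with smaller values. Ndufaf4, an assembly factor, was higher in IgM-positive than in IgM-negative liver B (1.10 ± 0.50, adjusted p = 0.682), but its second probe, well above background on 23 arrays, gave -0.73 and the mean of both 0.18. Ndufa11, a membrane arm subunit, was lower in SP4 than in DP (-0.72 ± 0.33) and than in SP8 (-0.71 ± 0.33), with adjusted p of 0.747 and 0.963. With slide as a block the first of these was 0.09. Ndufv3, an accessory subunit of the NADH-oxidising arm, was lower in SP4 than in SP8 (-0.67 ± 0.28, adjusted p = 0.920), and the mean of its 3 probes gave 0.06. Ndufaf1, an assembly factor, was at -2.37 and -7.44 on the tg B arrays, a group mean of -4.90 ± 3.59 (SD, n = 2). DP and DN3 did not overlap for Ndufb6 (0.63 ± 0.74) and Ndufa5 (-0.27 ± 0.23), nor did SP4 and DP for Ndufa5 (0.35 ± 0.23) or SP8 and DP for Ndufc2 (-0.78 ± 0.63), with adjusted p from 0.867 to 1.0. With slide as a block these became 0.06, -0.14, 0.07 and -0.16.

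Complex II, succinate dehydrogenase, also serves in the citrate cycle. Its catalytic flavoprotein Sdha showed the second largest within-group SD of all members, 1.84. It was at -2.54, -3.38 and -3.83 in wt DP and at -7.62, -5.06, -4.13 and -7.65 in tg DP. Those groups did not overlap, as for 4.38% of all genes in this direction and 5 members, and the difference was -2.87 ± 1.34 (adjusted p = 1.0). The tg DP arrays 4 and 6B were not well above background. SP4 was at -1.06, -2.01 and -1.96, above all wt DP (1.57 ± 1.43, adjusted p = 0.924) and all SP8 arrays (3.02 ± 1.43, adjusted p = 0.964). Sdhb, the iron-sulphur subunit, was at -0.87, -1.35 and -0.65 in IgM-negative liver B and at -0.41, -0.62 and -0.94 in IgM-positive liver B. Wt thymocytes lay lower (median -1.37, range -1.58 to -0.29), with a difference from liver B of -0.44 ± 0.20 and an adjusted p of 0.343. The membrane anchors Sdhc (group means -1.25 to -0.77) and Sdhd (-2.94 to -2.37) stayed within narrow ranges.

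Complex III, the cytochrome bc1 complex, had the lowest median of any complex in any group, -0.52 ± 0.35 (SD, n = 3) in IgM-positive liver B. Its arrays were at -0.77, -0.12 and -0.67, against 0.01 to 0.16 in IgM-negative liver B, and 7 of 8 members were lower. Of the core subunits, Uqcrc1 had group means from -2.31 to -1.32 and Uqcrc2 from 0.89 to 1.43. Uqcrfs1, the Rieske iron-sulphur protein, has the dimmest probe of the tested members. It was at -4.63, -5.17 and -4.80 in wt DP, all well above background, and at -5.97, -7.42 and -7.08 in SP4, none of them well above background. SP4 was at least 1.67-fold lower than DP and at least 1.85-fold lower than SP8, for fitted differences of -1.96 ± 0.64 and -2.10 ± 0.64 (adjusted p = 0.568 and 0.741). SP8 15, at -5.98, overlapped SP4. The tg DP arrays, at -5.80, -5.46, -5.19 and -5.32, were also not well above background and at least 1.42-fold lower than wt DP. These bounds are on the processed signal: with normexp the differences were -0.31, -0.36 and -0.19, all smaller than the bounds. By the F-test it followed Atp5a1 and Ndufb5 among members (adjusted p = 0.298).

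Uqcrb, a small subunit at the quinone-reducing site, came next (adjusted p = 0.326). It lay between 1.34 and 2.79 on all arrays except tg B 23, at 3.67. It was at 2.35, 2.22, 2.03 and 1.97 in tg DP and at 1.92, 1.79 and 1.93 in wt DP, groups that did not overlap (0.26 ± 0.28, adjusted p = 1.0), which held for 2.54% of all genes and 1 member. Uqcr11 was at -0.64 to 0.14 (median -0.29) in wt thymocytes and at -0.97 to -0.45 (median -0.56) in liver B, a difference of 0.41 ± 0.14 (adjusted p = 0.20). In tg against wt DP it was -0.33 ± 0.21 (adjusted p = 1.0). Uqcrq, a small subunit with the largest range of group means in complex III, was at -2.66 and -3.57 in tg B, against -0.65, -0.58 and -1.22 in IgM-negative liver B.

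**Figure D3:**
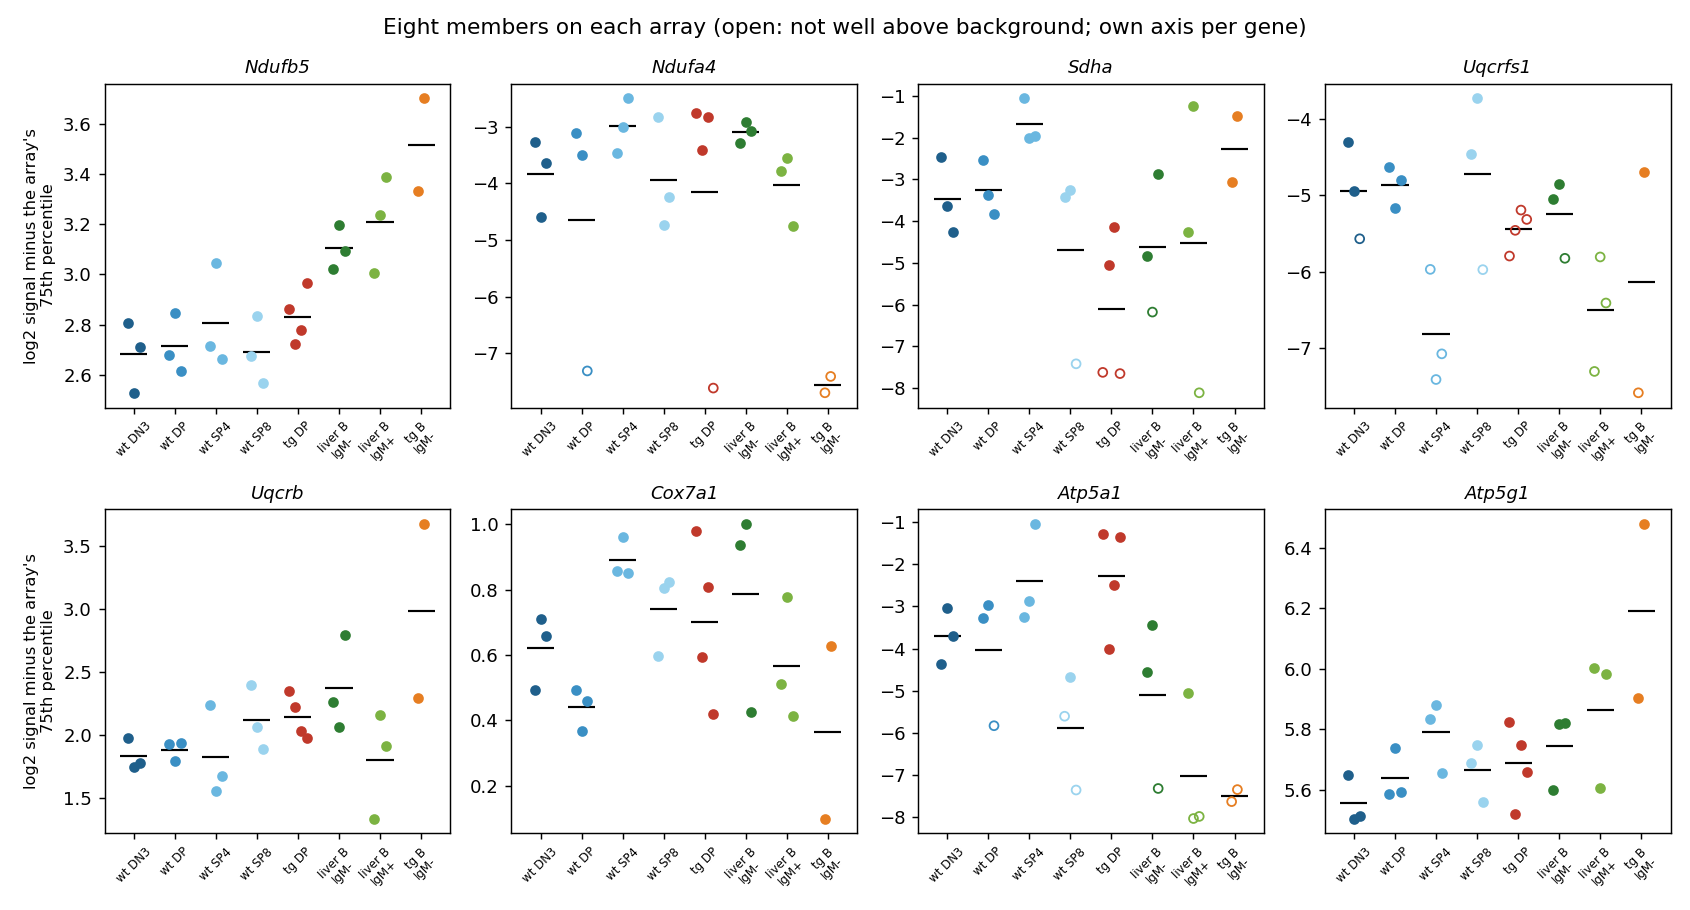
Values (log2 signal minus the array's 75th percentile, each gene on its own axis) of 8 members on every array; filled points are well above background, open points are not, and lines are group means. Ndufb5 runs from 2.53 to 3.05 in wt thymocytes and from 3.01 to 3.39 in liver B, while the lowest values of Ndufa4, Sdha and Atp5a1, at -7.70, -8.11 and -8.02, are open points.

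Complex IV, cytochrome c oxidase, has subunits in paired isoforms for general use, for heart and skeletal muscle and for testis. Its per-array medians were highest in SP4 (0.21, 0.22 and 0.13) and lower in wt DP (-0.14, -0.12 and 0.01), and 14 of 16 members were higher in SP4, with a median difference of 0.40. Over all genes 41.9% were higher in that comparison, and none of the 16 passed. SP4 and wt DP share no slide. Cox7b, a small general subunit, was at -0.18, -0.65 and 0.53 in SP4 and at -2.19, -0.59 and -2.07 in DP. DP 2 lay within the SP4 range, and the difference was 1.52 ± 0.66 (adjusted p = 0.734). It was also higher in wt thymocytes (median -0.75) than in liver B (median -2.06), by 1.13 ± 0.40 (adjusted p = 0.221).

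Isoforms known from muscle gave signal in all lymphoid groups. Probes of Cox6a2, Cox7a1 and Cox8b were well above background on all 24 arrays, as was the testis isoform Cox6b2. The testis isoforms Cox7b2 and Cox8c were so on 10 and 17 arrays. Cox7a1 was at 0.49, 0.37 and 0.46 in wt DP, at 0.86, 0.96 and 0.85 in SP4, at 0.60, 0.81 and 0.82 in SP8 and at 0.49, 0.71 and 0.66 in DN3. All 3 other wt thymocyte groups lay above wt DP, without overlap, though DN3 7 and DP 3A round to the same value. The differences were 0.45 ± 0.19 for SP4, 0.30 ± 0.19 for SP8 and, for DP against DN3, -0.18 ± 0.19 (adjusted p = 0.706, 1.0 and 1.0). With slide as a block they were 0.19, 0.09 and -0.04. Tg DP, at 0.98, 0.59, 0.81 and 0.42, spanned those ranges. Whether these probes also read other transcripts was not tested.

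By within-group SD, the general partners Cox6a1, Cox6b1, Cox7a2 and Cox7b varied more between arrays than the isoforms of the same subunit. Cox8a (0.40) varied less than Cox8b (0.87) and Cox8c (1.58). Cox7a2 was at -1.24, -1.02 and 0.04 in SP8 and at -1.79, -2.78 and -1.67 in DP (1.34 ± 0.64, adjusted p = 1.0). Cox6a1 was at -2.71, -2.43 and -2.48 in DP and at -1.83, -1.07 and -1.23 in DN3 (-1.16 ± 0.79, adjusted p = 1.0), or -0.60 with slide as a block. Group means ran from -1.83 to -0.18 for Cox6b1, from -1.06 to -0.46 for Cox6c, from -0.33 to 0.01 for Cox8a and from -0.19 to 1.02 for Cox7c. For the isoforms they ran from -0.02 to 0.27 for Cox6a2, from 0.30 to 1.02 for Cox6b2, from -3.31 to -0.55 for Cox8b, from -5.78 to -5.01 for Cox7b2 and from -5.64 to -3.64 for Cox8c. Cox5a ran from -3.27 to -2.40. Cox5b, beside the oxygen-reducing core, had group means from 1.17 to 1.44, and Cox7a2l, a factor of supercomplex assembly, from 0.46 to 0.74. The array places this Cox5b probe on chromosome 15, while the RefSeq promoter of the gene lies on chromosome 1. The other Cox5b probe, placed on chromosome 1, had a mean of -4.09 and was well above background on 18 arrays.

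Complex V, ATP synthase, joins a catalytic head to a membrane rotor. Atp5a1, its alpha subunit, had the smallest F-test p of all members (adjusted p = 0.0825) and the largest range of group means, from -7.48 in tg B to -2.28 in tg DP. It was at -1.28, -4.00, -2.49 and -1.36 in tg DP, at -3.28, -2.97 and -5.83 in wt DP, at -4.37, -3.03 and -3.70 in DN3 and at -3.26, -2.88 and -1.05 in SP4. It was at -5.60, -4.68 and -7.35 in SP8, at -5.05, -8.02 and -7.98 in IgM-positive liver B and at -7.62 and -7.34 in tg B. IgM-negative liver B was at -4.55, -3.45 and -7.31. On 8 arrays the probe was not well above background: wt DP 3, SP8 13 and 15, IgM-negative 18, IgM-positive 20 and 21, and tg B 22 and 23. The difference was 3.48 ± 1.08 in SP4 against SP8 (adjusted p = 0.747), which did not overlap, and 2.06 ± 0.66 in wt thymocytes against liver B (adjusted p = 0.171). Atp5a1 has 1 probe, with a GC content of 40.0%.

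Atp5b, the catalytic beta subunit, was at -3.21, -3.83 and -2.68 in IgM-negative and at -3.91, -3.91 and -5.96 in IgM-positive liver B (-1.35 ± 0.61, adjusted p = 0.681). In SP4 it was at -4.97 to -3.72, below all SP8 arrays (-3.64 to -3.46), while SP4 lay above SP8 for Atp5a1 (Atp5b -0.61 ± 0.61, adjusted p = 1.0). Atp5c1, the gamma subunit of the rotor, was at 0.84, 0.80 and 0.52 in wt DP and at 0.32, 0.42, 0.49 and 0.20 in tg DP, a difference of -0.37 ± 0.17 (adjusted p = 1.0). Its second probe, well above background on 24 arrays, gave -0.07. The delta subunit Atp5d ran from -3.20 (tg B) to -0.98 (DN3) and the stalk subunit Atp5o from -2.82 (SP4) to -1.18 (tg B). Atp5e, the epsilon subunit, had a median of 0.97 in wt thymocytes and of 0.29 in liver B (0.67 ± 0.27, adjusted p = 0.278), and was 0.71 ± 0.49 higher in tg than in liver IgM-negative B.

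Of the genes for the ring-forming c subunit, Atp5g1 has the brightest probe, at 5.5 to 6.48. It was at 5.60, 5.82 and 5.82 in IgM-negative liver B and at 5.90 and 6.48 in tg B, a difference of 0.44 ± 0.18 (adjusted p = 0.227), and its second probe gave 0.49. Atp5g2 had group means from 0.88 to 1.27. Atp5g3 was well above background on 19 arrays and was higher in SP8 than in DP (1.29 ± 0.83) and lower in SP4 than in SP8 (-1.31 ± 0.83), with adjusted p of 1.0 for both. Atp5l, the g subunit, has 6 probes, 1 of which the array places on chromosome X rather than on 9. All 6 were higher in SP8 than in DP, by 0.37 to 0.84, and the representative probe by 0.84 ± 0.43 (adjusted p = 1.0). Atp5k, the e subunit, was lower in tg than in liver IgM-negative B (-1.87 ± 0.63, adjusted p = 0.172), at -1.02 on array 22 and -2.99 on array 23 against -0.50 to 0.06. Its other 2 probes, both well above background on 24 arrays, gave -1.33 and 0.03, and the last of these is the one the array places on chromosome 5. Atp5h, the d subunit, was lower in IgM-positive than in IgM-negative liver B (-0.86 ± 0.42, adjusted p = 0.710) and in DP than in DN3 (-0.60 ± 0.42, adjusted p = 1.0). Its second probe, well above background on 24 arrays, gave -0.35 and -0.03. With slide as a block the DP against DN3 difference was -0.29. Atp5f1, the b subunit, was lower in SP4 than in SP8 (-1.26 ± 0.89, adjusted p = 1.0).

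The tg B group, with 2 arrays, was the lowest group for 34 of the 87 members and the highest for 14. The same counts over all genes were not made, so these are no result about the members. Tg B was also lowest in the median over all genes (-0.17). Its comparison with IgM-negative liver B depended on which array was kept: without tg B 22 the fit, with the lone tg B 23 assumed to vary like the other groups, called 15 members (6 higher, 9 lower) and 5813 of all genes, and without tg B 23 it called 0 members. The tg against wt DP difference minus the tg against liver IgM-negative B difference was also tested. Its B cell part compares thymus with fetal liver, so organ and transgene cannot be told apart in it. In limma 0 members passed, 6 had an unadjusted p under 0.05 (6.98%, against 9.68% of all genes), and 0.00595% of all genes passed. Ndufa4 had the smallest p of this contrast among members (4.95 ± 1.58, adjusted p = 0.355).

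Arrays of a group agreed closely for some members and not for others. The within-group SD had a median of 0.653 over the 86 tested members (all genes 0.497) and ran from 0.155 (Ndufb5) to 1.85 (Atp5sl). It was under 0.3 for 16 members, Cox5b, Atp5g1 and Ndufa4l2 among them, and over 1 for 21 (24.4%, against 17.5% of all genes). For Cox5b this is the probe placed on chromosome 15, and the probe placed on chromosome 1 had an SD of 1.34. The median was 0.536 for the 66 members well above background on 24 arrays and 1.39 for the other 20. Across the 87 members the SD had a Pearson correlation of -0.72 with the mean level, as a description across genes. Where a gene had further probes well above background on all arrays (18 genes, 30 pairs with the representative probe), both probes had the same sign in 15 pairs in tg against liver IgM-negative B and in up to 24 in SP8 against DP.

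**Figure D4:**
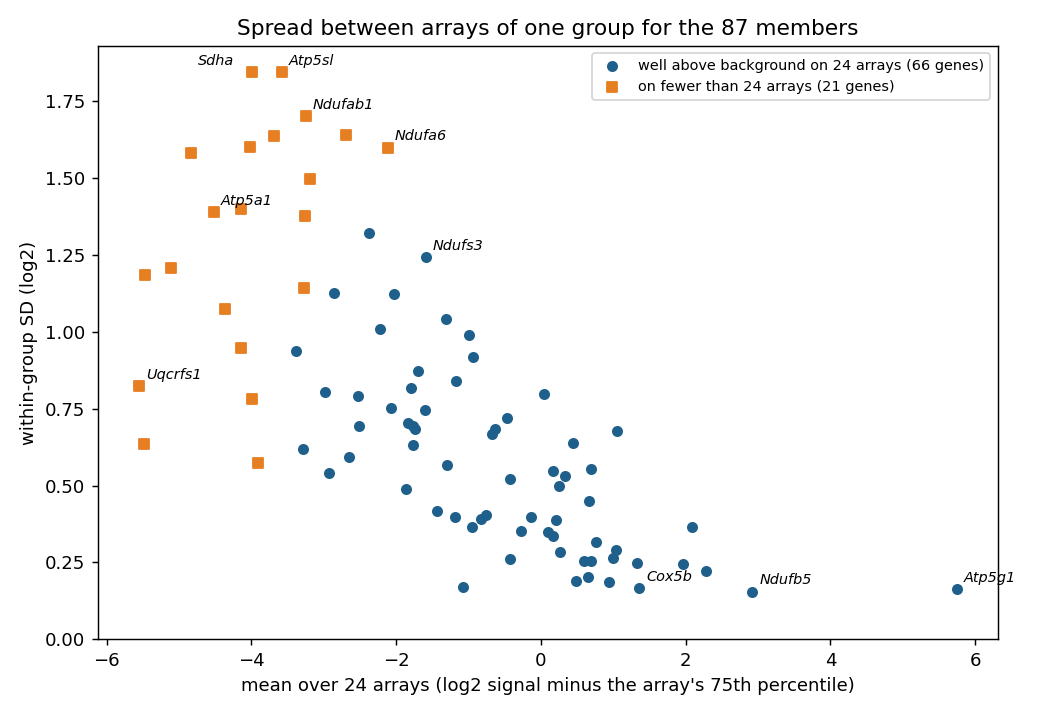
Within-group SD (log2, vertical axis) of the 87 members against their mean level over the 24 arrays; circles are members well above background on all arrays, squares those on fewer. The SD falls from up to 1.85 among dim members to 0.155 for Ndufb5 and 0.163 for Atp5g1 among bright ones.

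The subunits encoded in the mitochondrial genome, which fall outside the naming rule, were measured for all 13. They are cut from shared long transcripts and so are not independent of each other. The array annotation (mm9) places 7 of their probes on the mitochondrial genome and 6 on chromosome 1, in a nuclear copy of that genome, so signal from the nuclear copy cannot be told apart. Centred on each gene's mean, their per-array median was 0.24, 1.14 and 1.38 in DN3, and -0.27, -0.20 and -0.66 in wt DP. In SP4 it was 0.79, 0.27 and 0.85, and in SP8 0.47, 0.07 and -0.47. DN3 7, the DN3 array on the slide of the wt DP arrays, lay above all of them but below the other DN3 arrays.

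All 13 were lower in DP than in DN3 (median -1.37, range -1.64 to -0.57). For 12 of them the groups did not overlap, against 5.25% of all genes, and 7 had an unadjusted p under 0.05 (2.09% of all genes), but 0 passed in limma. All 13 were higher in SP4 than in DP (median 1.12), 11 without overlap (5.5% of all genes) and 4 at an unadjusted p under 0.05, and 0 passed. ND1, for example, was at 0.84, 0.69 and 0.19 in DP, at 1.30, 2.24 and 2.45 in DN3 and at 2.02, 1.72 and 2.08 in SP4. All 13 were also higher in SP8 than in DP (median 0.47), in SP4 than in SP8 (0.58) and in wt thymocytes than in liver B (0.60), with 0 called. No slide holds both SP8 and wt DP, or both SP4 and wt DP, and 1 slide holds wt thymocytes and liver B, with 1 array of each. With slide as a block, chosen after seeing the data, SP8 was higher than DP for 4 and lower for 9 (median -0.17), and wt thymocytes higher than liver B for 6 and lower for 7 (-0.03). DP stayed below DN3 for all 13 (-1.0) and SP4 above DP for 12 (0.92), but 0 had an unadjusted p under 0.05 in either. SP4 stayed above SP8 for all 13 (0.98). The CYTB difference, for example, went from -1.20 to -0.59 in DP against DN3. Without the block, the nuclear members had medians between -0.11 and 0.13.

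CYTB, the cytochrome b core of complex III, was the gene of this list that passed. It fell in tg against liver IgM-negative B, from 0.60, 0.94 and 2.02 to -0.98 and -2.27 (-2.81 ± 0.50, limma adjusted p = 0.0476), and passed the F-test (adjusted p = 0.0275). The call was lost without tg B 23 (adjusted p = 0.359) and in several other fits, such as with quantile scaling (adjusted p = 0.0803). Of the other 12, ND3 (-2.32 ± 0.83, adjusted p = 0.191), COX3, ND4 and ND5 were also lower and 8 were higher. Tg B 22 and 23 had medians over the 13 of -1.40 and 0.78.

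**Figure D5:**
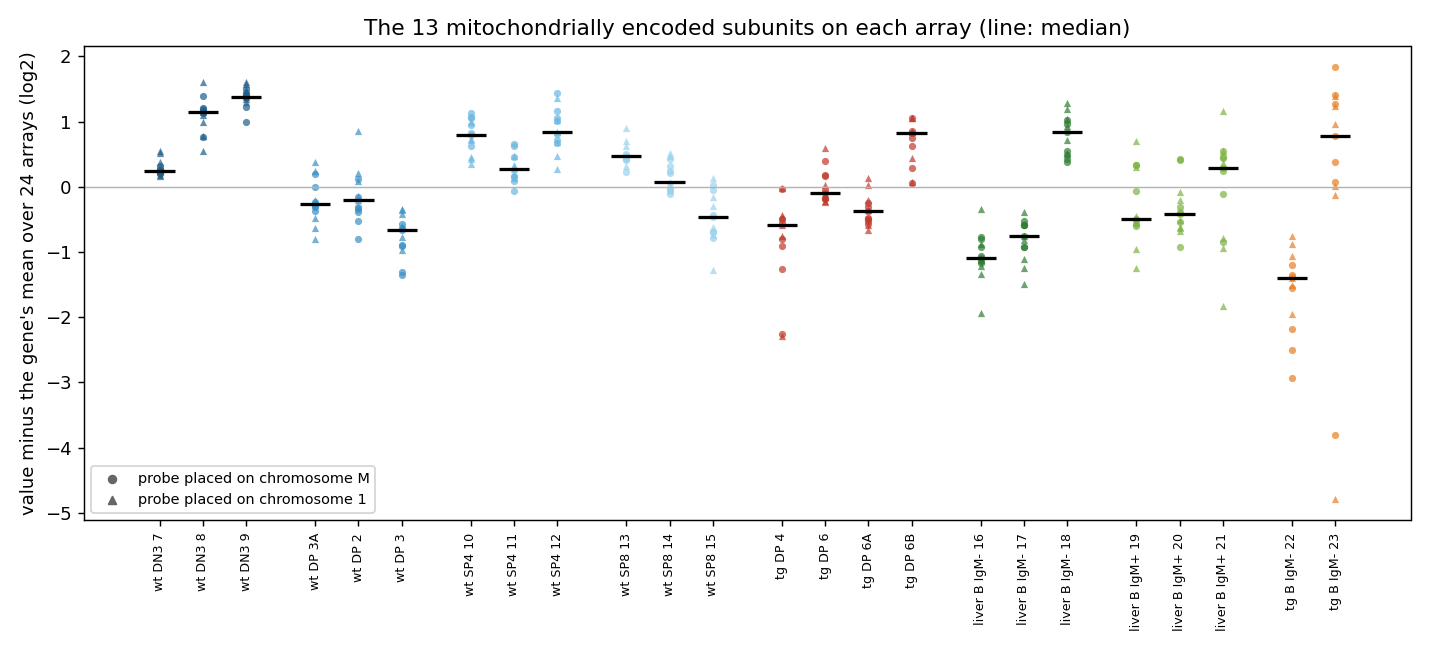
Values of the 13 mitochondrially encoded subunits on every array, each minus its mean over the 24 arrays (log2); circles are probes placed on the mitochondrial genome, triangles those placed on chromosome 1, lines the median. The medians of DN3 (0.24 to 1.38) lie above those of wt DP (-0.66 to -0.20), and tg B 23 holds values down to -4.78 (ND3).

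Lists of related genes were read alongside. No gene of them was called in any of the 8 comparisons in limma: 29 tested partners of the complexes outside the naming rule (assembly factors and cytochrome c among them), 16 genes of the citrate cycle and pyruvate dehydrogenase, 17 of glycolysis, 14 regulators of mitochondrial genes and 10 mitochondrial carriers and channels. At an unadjusted p under 0.05 in 1 or more comparisons there were 9, 8, 10, 2 and 5 genes of these lists. In single comparisons 2.09% to 17.1% of all genes had such a p. The share of all genes with 1 in any of the 8 was not computed, so these counts are no result about the lists. Cycs, somatic cytochrome c, came closest among the partners, with -3.59 ± 0.98 in tg against liver IgM-negative B (adjusted p = 0.123), and Cyct, its testis form, was at -2.06 ± 0.71 in SP4 against DP (adjusted p = 0.595). Gapdh, of glycolysis, was 0.41 ± 0.090 higher in wt thymocytes than in liver B (adjusted p = 0.0622) and Pgk1 0.93 ± 0.27 (adjusted p = 0.14). Idh3g, of the citrate cycle, was at -3.75 ± 1.02 in IgM-positive against IgM-negative liver B (adjusted p = 0.424). Among regulators, Gabpa, the DNA-binding part of GABP, was at 1.04 ± 0.34 in tg against wt DP (adjusted p = 1.0) and Polrmt, the mitochondrial RNA polymerase, at -0.92 ± 0.29 in tg against liver IgM-negative B (adjusted p = 0.158). Ucp3, an uncoupling protein, was at 1.18 ± 0.30 in SP4 against DP (adjusted p = 0.364).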

How the data were processed

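Per the labels' protocols, RNA of directly lysed sorted cells was captured on beads, copied, globally amplified by PCR and labelled with Cy3, and per the file headers the arrays (design 028005) were scanned on a G2505C scanner and read with Feature Extraction 10.7.3.1. The deposited spot values are intensities: a processed signal with background subtracted, and mean and background signals. The deposited series matrix holds log2 values by the authors, with column medians of 7.93 and ranks equal to each array's own signals; the program behind them is not stated in those sources. Amplification from few cells can widen the spread of dim probes.

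Control spots (3671 of 62976 an array) and values with an outlier flag (82 to 173 an array) were left out, and spots of a probe were averaged. Each value is the log2 processed signal after subtraction of its array's 75th percentile. Genes entered the fit where 1 or more probes were well above background throughout 1 or more groups. All 24 arrays were fitted with limma 3.58.1 in R 4.3.3 (lmFit, eBayes, 8 group means, no covariate), with Benjamini-Hochberg adjustment over all genes; tables were made with Python 3.11.15. A probe not well above background on a whole group gives only a bound: the brighter mean against, per array, the higher of the dimmer probe's value and the lowest signal well above background. Replicates not well above background count at their measured value.

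The fit was tested on simulated data. The number of arrays limits the precision. Members matched RefSeq by accession (81) or symbol (6); probe positions are on mm9 as the array annotation gives them, and promoters on GRCm38.p6. Named members were those with the strongest statistic and groups that do not overlap (up to 4 a direction in each comparison), the 4 smallest p by F-test, the brightest and dimmest, the largest ranges, and a fixed set by role; members named for an unadjusted p under 0.05, Ndufa6 and single Atp5 probes among them, were chosen after their values were seen. Values of 1 gene are not reported here. Members, lists and tests were chosen with earlier results of these data known. Alternatives were background correction, scaling, the authors' matrix, filters, the probe rule, slide as a block, array weights, averaging shared title numbers, fits of only the groups compared, and leaving out arrays.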

Additional observations from a re-analysis of the deposited data

Results flagged for a closer look

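In 62 checks of groups of 4 arrays, 1 value stood apart from the rest of its group by more than Dixon's 95% limit, where chance flags about 1 in 20. It was Ndufa4 in tg DP: array 6B was at -7.62, and the other 3 arrays were between -3.42 and -2.75. The probe was not well above background on 6B. The same probe was at -7.32 on wt DP 3 and at -7.70 and -7.41 on the tg B arrays. The per-array median of all members on tg DP 6B was -0.14, against -0.04 to 0.11 on the other tg DP arrays.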

How the results depend on the processing

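No paired analysis was possible because no replicate number of the labels is shared between groups. Of the counts and medians recomputed under every alternative, 328 stayed as reported, 9 medians moved by more than the pooled SD of 0.114 and 10 counts of called members rose. The median in tg against liver IgM-negative B, -0.31, became -0.15 with normexp, -0.14 with quantile scaling, -0.0088 with median scaling and -0.14 with the authors' matrix, and -0.47 to -0.28 with an array left out. That in IgM-positive against IgM-negative liver B, -0.33, became -0.20, -0.18, -0.18 and -0.18 under the same 4 settings. Scaling to the median moved the median of all genes in the first comparison from -0.21 to 0.09. In wt thymocytes against liver B the count of called members became 1 (Ndufb5) with normexp, quantile scaling, the authors' matrix or only probes well above background on all 24 arrays, and 0 to 1 with an array left out (1 without SP4 11 or IgM-positive 19). By the F-test it became 1 with array weights and 0 to 6 with an array left out. In tg against liver IgM-negative B it became 1 (Ndufa4) with shared title numbers averaged and 0 to 15 with an array left out, 15 and 6 being without tg B 22. Signs turned for Ndufb5 in tg against liver IgM-negative B (-0.20, mean of probes), Ndufa11 in SP4 against DP (0.0856, slide as a block) and Ndufv3 in SP4 against SP8 (0.0624, mean of probes). The cause of these changes was not tested, except that fewer genes are tested under the stricter filter. Leaving out tg B 23, tg DP 4 and IgM-positive 21 together, chosen after seeing the data, called 0 members in every comparison. Signal over background limits the 20 tested members that were not well above it on all arrays.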
